A study of Homo sapiens with 8 samples.

Results

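The 10 genes described here encode amino acid transporters of the cell surface: SLC7A11, SLC3A2, SLC7A5, SLC7A1, SLC1A5, SLC1A4, SLC38A1, SLC38A2, SLC43A1 and SLC6A9, of 20263 genes in the table of the series. They belong to the solute carrier (SLC) superfamily and were found by symbol through their human Ensembl identifiers. They were chosen by name with their levels with and without treatment, from the comparison described here, in view. Their own differences between the groups are therefore given as a description, with no p-value, and counts of members past a threshold are not evidence about the group. The cells were PANC-1, an established line from a human carcinoma of the pancreatic duct. They were treated for 24 h with 10 μM eupalinolide B (EB), a sesquiterpene lactone of the plant Eupatorium lindleyanum, or with the vehicle dimethyl sulfoxide (DMSO). mRNA was sequenced in 4 libraries per group, all from the same line, with 1 dose and 1 time point. Values are TPM, the share of transcripts per gene scaled to a fixed total in each library, which are corrected for transcript length and can be compared between genes within a library. Table columns headed C were read as DMSO and those headed H, a letter that was not explained, as EB, since the experiment has no other group.

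Cells take up amino acids through carriers of several kinds. Sodium-coupled carriers concentrate amino acids in the cell, exchangers trade one amino acid for another across the membrane, and facilitators let them pass down their gradient. Several exchangers are pairs of proteins in which a light chain of the SLC7 family forms the transport path and the heavy chain SLC3A2, also called CD98hc or 4F2hc, carries it to the surface. When amino acids are short or the endoplasmic reticulum is stressed, phosphorylation of the initiation factor eIF2α favours translation of the transcription factor ATF4, and many genes for amino acid transporters are known targets of ATF4. Cystine uptake by SLC7A11 supplies cysteine for glutathione, and SLC7A11 is also a known target of the oxidant-responsive factor NRF2.

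The promoters of the members are shown because ATF4 and NRF2 bind known motifs. Each window ran from 250 bases before to 50 bases after a start that RefSeq lists on GRCh38.p14. For 9 members 16 such windows were matched, and SLC7A11 had none in the table used. The core of the CCAAT/enhancer-binding protein (C/EBP)-ATF response element, TGATGNAA, and the core of the antioxidant response element, TGACNNNGC, were searched on both strands, and no matches of one overlapped matches of the other. TGATGNAA was found in 5 of the 16 windows, in SLC1A4, SLC1A5, SLC38A1, SLC3A2 and SLC7A1, and in 3.62% of 35116 windows of all genes. TGACNNNGC was found in 4 of the 16 windows, in SLC1A5, SLC3A2, SLC7A1 and SLC7A5, and in 13.3% of all windows. A match describes the letters and does not show binding, and gene-level TPM do not tell which start was used. The runs below go from 120 bases before the start to 20 bases after it, 5′ to 3′ on the strand of the gene, with matches in capitals.
SLC3A2, chr11:62881579-62881718, plus strand: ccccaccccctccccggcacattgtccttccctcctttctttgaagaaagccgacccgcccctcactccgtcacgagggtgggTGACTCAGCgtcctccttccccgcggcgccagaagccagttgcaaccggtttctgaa
SLC1A4, chr2:64989279-64989418, plus strand: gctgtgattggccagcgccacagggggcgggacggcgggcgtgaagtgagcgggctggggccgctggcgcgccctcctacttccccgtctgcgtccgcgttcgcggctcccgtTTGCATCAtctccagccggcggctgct
SLC7A5, chr16:87869488-87869627, minus strand: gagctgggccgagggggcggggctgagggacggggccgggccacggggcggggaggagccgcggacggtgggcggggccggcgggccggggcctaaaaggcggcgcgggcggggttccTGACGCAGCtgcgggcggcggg
SLC7A1, chr13:29595669-29595808, minus strand: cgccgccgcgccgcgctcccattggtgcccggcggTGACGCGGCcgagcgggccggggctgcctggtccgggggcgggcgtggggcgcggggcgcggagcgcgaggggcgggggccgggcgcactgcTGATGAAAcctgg
SLC38A1, chr12:46266497-46266636, minus strand: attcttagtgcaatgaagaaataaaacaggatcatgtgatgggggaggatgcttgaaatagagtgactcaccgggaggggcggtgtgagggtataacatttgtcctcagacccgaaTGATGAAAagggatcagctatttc
The capitals in SLC3A2 are an antioxidant core and those in SLC1A4 a C/EBP-ATF core read on the opposite strand. SLC7A5 holds an antioxidant core across its start, SLC38A1 a C/EBP-ATF core across its start, and SLC7A1 an antioxidant core upstream and a C/EBP-ATF core just after the start. The C/EBP-ATF core of SLC3A2 lies farther downstream, from base 38 to base 45 after the start on the opposite strand, and its surroundings are shown with those of the same core in SLC1A5.
SLC3A2, chr11:62881725-62881748, plus strand: tgcaggactccTTACATCAgctcc
SLC1A5, chr19:46784893-46784922, minus strand: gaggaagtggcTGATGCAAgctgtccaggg
The starts shown for SLC7A5 and SLC7A1 are at the 5′ end of the gene in GENCODE, and the others are inside it. The C/EBP-ATF core of SLC1A5 belongs to a start at base 46784814. Of the 140 bases from 120 before to 20 after that start, 111 are annotated as exon. None of the windows of SLC38A2, SLC43A1 and SLC6A9 held the letters of either core.

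The libraries had the character of the labelled cells. KRT8, KRT18, KRT19 and SOX9, markers of pancreatic duct epithelium, were present in all 8, whereas KRT7 reached at most 0.297 TPM. Of 16 markers of acinar, islet, immune, endothelial and fibroblast cells, 11 were listed at 0 throughout and the highest value was 1.37 TPM, for CD14. DMSO replicate 4 stood apart from the others in the share of TPM taken by the 13 mitochondrially encoded genes, 39.0% against 17.0 to 21.1% in the other DMSO libraries and 11.6 to 20.3% in the EB libraries. TPM have a fixed sum, so this lowers the TPM of nuclear genes in that library. DMSO replicate 4 was the lowest DMSO library for 8 of the 10 members and EB replicate 4 the lowest EB library for 8 of the 10. The part of this share in the differences below was tested only by removing the mitochondrial genes and rescaling.

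EB and DMSO were compared by limma on log2(TPM + 1) in 11725 genes, those that reached 1 TPM in 4 or more libraries. A log2 fold change, given below as the EB mean minus the DMSO mean on this scale, understates the change of low genes. Of the members, 9 were tested and reached 1 TPM in all 8 libraries, and SLC7A11 was not tested, since it reached 1 TPM in 3. At a limma adjusted p under 0.05 over all genes, 3 of the 9 members were higher with EB, where 15.2% of all genes tested were, and 1 was lower, where 25.1% of all genes were. In either direction this was 4 of 9 members beside 40.3% of all genes. Among all calls, 37.7% were higher with EB, a share that was 51.2% with median-ratio scaling, 50.3% with quantile normalization, 52.8% with trends in length and GC content removed and 22.7% with the mitochondrial genes removed. These member counts come from the comparison by which the members were chosen. The same holds for each pass or fail of a single member below. Other processing of the same libraries does not remove this, so these are descriptions as well. The median log2 fold change of the 9 was 0.33, beside −0.11 for all genes tested. The latter was 0.01 with median-ratio scaling and −0.28 with the mitochondrial genes removed.

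**Figure D1:**
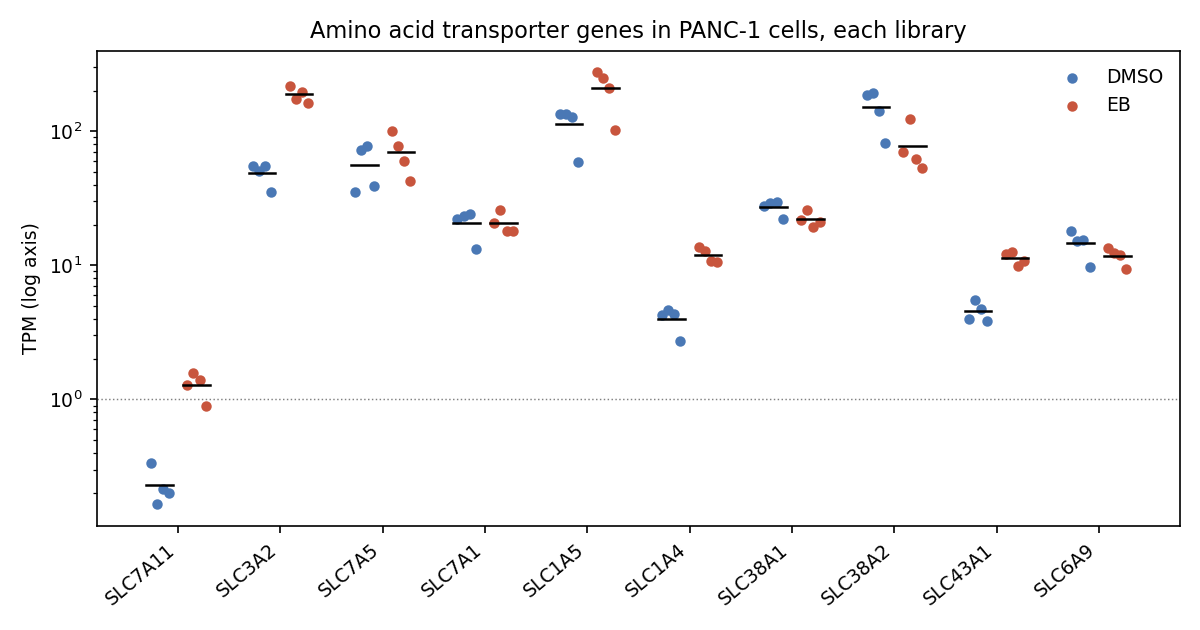
TPM of the 10 members in each library, with DMSO and EB side by side on a log axis, each point 1 library and each bar the mean of 4. The groups are apart for SLC3A2, SLC1A4, SLC43A1 and SLC7A11, with all EB libraries above all DMSO libraries, and overlap for the other members.

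SLC3A2 (ENSG00000168003), the shared heavy chain, showed the largest difference of the 9 members tested. In hg38 the gene spans bases 62856004 to 62888880 of chromosome 11, plus strand. Its TPM in DMSO replicates 1 to 4 was 55.2, 50.3, 55.1 and 35.4. With EB it was 219, 173, 197 and 164. Every EB library was above every DMSO library, by more than the range within either group. The means were 188 ± 24.9 (SD, n = 4) with EB and 49.0 ± 9.32 with DMSO, a ratio of 3.84 and a log2 fold change of 1.93 (standard error 0.17). Under all 17 alternative treatments of the data the log2 fold change was between 1.75 and 2.06. SLC3A2 was also the 1 member past the thresholds named in the study, an unadjusted p (here from limma) under 0.05 and a change of more than 1.5 on the log2 scale, which 0.537% of all genes passed upward.

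SLC7A5 (ENSG00000103257), or LAT1, is the light chain that brings in large neutral amino acids such as leucine in exchange for glutamine and others. The gene spans bases 87830023 to 87869507 of chromosome 16, minus strand. The DMSO libraries held 35.01, 72.7, 77.2 and 39.2 TPM, and the EB libraries 99.8, 77.0, 60.2 and 42.5. The groups overlapped over most of their range, and the SD of either group was larger than the difference of the means. The mean was 69.9 ± 24.4 with EB and 56.0 ± 22.0 with DMSO (SD, n = 4), and the log2 fold change was 0.33 with a standard error of 0.32. SLC7A5 passed the test under none of the alternatives, which put its log2 fold change between 0.14 and 0.65.

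SLC7A11 (ENSG00000151012), or xCT, is the light chain that takes up cystine and releases glutamate. Its position is 138164097 to 138242349 on chromosome 4, minus strand. With DMSO its TPM was 0.334, 0.165, 0.215 and 0.202, and with EB it was 1.27, 1.59, 1.40 and 0.898. All EB libraries were above all DMSO libraries, at levels low on the TPM scale and at unknown depth. The mean was 1.29 ± 0.292 with EB and 0.229 ± 0.0733 with DMSO (SD, n = 4), a ratio of 5.64, while the log2 fold change with the pseudocount was 0.89. With the mitochondrial genes removed, the rescaled EB values lifted SLC7A11 into the test, with a log2 fold change of 0.94. It then passed the filter through the EB libraries, the group where it is high, so its call in that setting says nothing further. SLC7A11 was the lowest of the 10 members in both groups.

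The heavy chain was set against its light chains within each library, by dividing the TPM of SLC3A2 by the summed TPM of SLC7A5, SLC7A6, SLC7A7, SLC7A8, SLC7A10 and SLC7A11. The ratio was 1.14, 0.557, 0.515 and 0.728 with DMSO and 1.96, 1.98, 2.90 and 3.30 with EB. The EB libraries were all above the DMSO libraries, and in 3 of the 4 DMSO libraries SLC3A2 was below its summed light chains. The mean ratio was 2.53 ± 0.673 with EB and 0.736 ± 0.287 with DMSO (SD, n = 4), and the former was 3.44 times the latter. This quotient was 2.48 once trends with the length and GC content of transcripts had been removed from each library. The sum of the light chains itself was 79.3 ± 26.7 TPM with EB and 73.5 ± 29.7 TPM with DMSO, a difference smaller than either SD. Within that sum, the share of SLC7A5 was 87.8% ± 1.47 with EB and 76.5% ± 4.61 with DMSO. SLC7A6, or y+LAT2, which exchanges cationic for neutral amino acids, took 9.87% ± 0.969 with EB and 22.1% ± 4.30 with DMSO. The share of SLC7A11 was 1.70% ± 0.395 with EB and 0.373% ± 0.238 with DMSO (SD, n = 4 for each share).

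**Figure D2:**
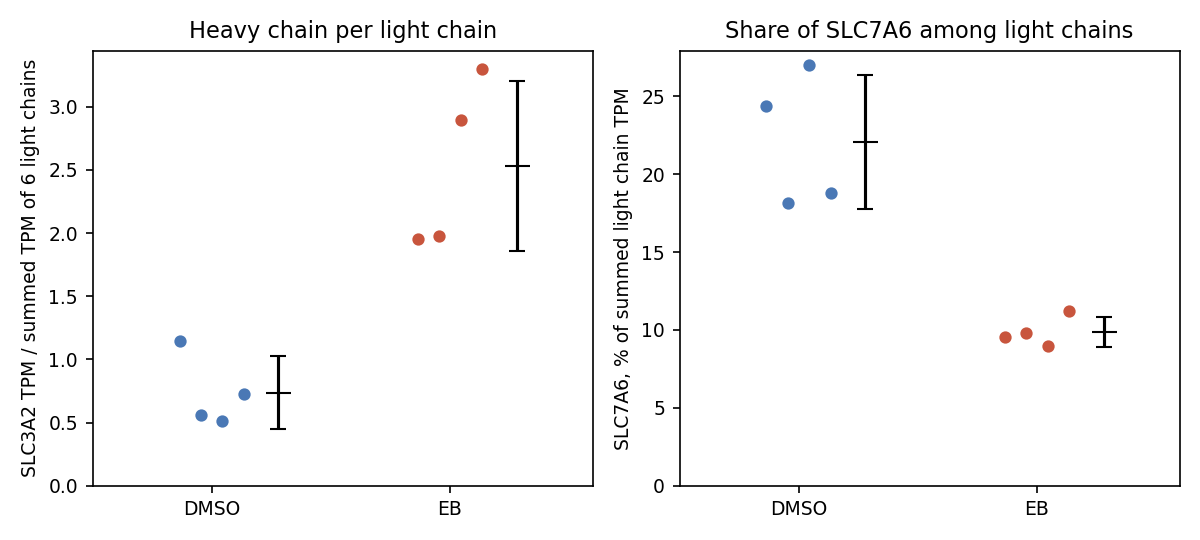
Left, TPM of the heavy chain SLC3A2 divided by the summed TPM of 6 light chains, and right, SLC7A6 in percent of the light chain sum, with each point 1 library and bars for the mean and SD of 4. The ratio is at most 1.14 with DMSO and at least 1.96 with EB, and the share of SLC7A6 is lower in every EB library than in any DMSO library.

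SLC1A4 (ENSG00000115902), or ASCT1, is a sodium-dependent exchanger of alanine, serine, cysteine and threonine. The gene spans bases 64988477 to 65023865 of chromosome 2, plus strand. SLC1A4 was at 4.24, 4.64, 4.33 and 2.74 TPM with DMSO and at 13.7, 12.8, 10.8 and 10.5 TPM with EB. The groups were clearly apart. The mean was 11.97 ± 1.55 with EB and 3.99 ± 0.850 with DMSO (SD, n = 4), a ratio of 3.004 and a log2 fold change of 1.39 (standard error 0.16). Under all 17 alternatives it was higher with EB past the test, with log2 fold changes between 1.26 and 1.70.

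SLC1A5 (ENSG00000105281), or ASCT2, is the paralog that exchanges glutamine and other neutral amino acids. Its position is 46774883 to 46788594 on chromosome 19, minus strand. With DMSO its TPM was 133.7, 134.0, 127.6 and 59.3, and with EB it was 275, 250.1, 211 and 103. In EB replicates 1 to 3 it was above every DMSO library, and in EB replicate 4 below 3 of the 4 DMSO libraries. The mean was 209.7 ± 76.1 with EB and 113.7 ± 36.3 with DMSO (SD, n = 4), a ratio of 1.85 and a log2 fold change of 0.86 with a standard error of 0.35. SLC1A5 did not pass the test, and it passed under 4 of the 17 alternatives, including the one without EB replicate 4, where its log2 fold change was 1.17. After removal of the mitochondrial genes and rescaling, DMSO replicate 4 was still lowest in its group, at 97.2 TPM against 161 to 169.9 TPM in the other DMSO libraries. The ratio of SLC1A5 to SLC1A4 within a library was 17.2 ± 4.96 with EB and 27.9 ± 4.30 with DMSO (SD, n = 4). It was 9.77 to 20.1 with EB and 21.7 to 31.5 with DMSO, so that the groups did not overlap.

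SLC38A2 (ENSG00000134294), or SNAT2, is a sodium-coupled carrier of small neutral amino acids that is known to increase when amino acids are scarce. The gene occupies bases 46358188 to 46372773 of chromosome 12, minus strand. In the DMSO libraries its TPM was 187, 192, 142 and 81.2, and in the EB libraries 69.7, 124, 62.0 and 53.0. EB replicates 1, 3 and 4 were below every DMSO library, and EB replicate 2 was above DMSO replicate 4. The mean was 77.2 ± 32.0 with EB and 150.5 ± 51.5 with DMSO (SD, n = 4), a ratio of 0.513 and a log2 fold change of −0.95 (standard error 0.32). SLC38A2 was the 1 member that was lower past the test, and the call was lost under 8 of the 17 alternatives. These were no filter on low values, removal of the length and GC trend, and leaving out any 1 of DMSO replicates 1, 2 and 3 or of EB replicates 1, 3 and 4. Its log2 fold change lay between −1.22 and −0.62 throughout.

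SLC38A1 (ENSG00000111371), or SNAT1, is the neighbouring paralog, from 46183063 to 46270017 on the minus strand of chromosome 12. With DMSO its TPM was 27.8, 29.3, 29.5 and 22.1, and with EB it was 22.0, 25.9, 19.4 and 21.1. EB replicates 1, 3 and 4 were below every DMSO library, by small margins, and EB replicate 2 was not. The mean was 22.1 ± 2.78 with EB and 27.2 ± 3.48 with DMSO (SD, n = 4), a log2 fold change of −0.29 (standard error 0.14). SLC38A1 did not pass the test, and its sign depended on the treatment of the data. The log2 fold change was −0.47 with the mitochondrial genes removed and 0.23 with the length and GC trend removed, each past the test. Without DMSO replicate 4 it was −0.38 and passed as well. The ratio of SLC38A2 to SLC38A1 within a library was 3.42 ± 0.964 with EB and 5.44 ± 1.46 with DMSO (SD, n = 4), with 1 EB library (4.78) inside the DMSO range of 3.68 to 6.72.

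SLC43A1 (ENSG00000149150), or LAT3, is a facilitator of branched-chain amino acids that works without a heavy chain. The gene spans bases 57484534 to 57515780 of chromosome 11, minus strand. SLC43A1 was at 3.997, 5.56, 4.73 and 3.84 TPM with DMSO and, with EB, at 12.1, 12.7, 9.98 and 10.8. The lowest EB library was well above the highest DMSO library. The mean was 11.4 ± 1.22 with EB and 4.53 ± 0.787 with DMSO (SD, n = 4), a ratio of 2.52 and a log2 fold change of 1.17 (standard error 0.14). It was higher with EB past the test under all 17 alternatives, with log2 fold changes between 1.04 and 1.44.

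SLC7A1 (ENSG00000139514), or CAT1, carries arginine and lysine and needs no heavy chain. Its position is 29509414 to 29595688 on chromosome 13, minus strand. With DMSO its TPM was 22.1, 23.4, 24.0 and 13.3, and with EB it was 20.8, 26.0, 18.1 and 17.9. The groups covered much the same range, and the mean was 20.7 in each, with an SD of 3.76 with EB and 4.98 with DMSO (n = 4). The log2 fold change was 0.02 with a standard error of 0.20. With the length and GC trend removed it was 0.49 and passed the test. It was −0.16 with the mitochondrial genes removed, −0.17 without DMSO replicate 4 and −0.09 without EB replicate 2, none of them past the test.

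SLC6A9 (ENSG00000196517), or GLYT1, is a sodium- and chloride-coupled carrier of glycine. The gene occupies bases 43991500 to 44031467 of chromosome 1, minus strand. In the DMSO libraries its TPM was 17.97, 15.1, 15.5 and 9.71, and with EB it was 13.4, 12.4, 12.01 and 9.46. Apart from DMSO replicate 4, every DMSO library was above every EB library. The mean was 11.8 ± 1.69 with EB and 14.6 ± 3.48 with DMSO (SD, n = 4), a log2 fold change of −0.26 (standard error 0.19) that did not pass the test. Without DMSO replicate 4 the log2 fold change was −0.43, and with the mitochondrial genes removed it was −0.44, and both passed.

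**Figure D3:**
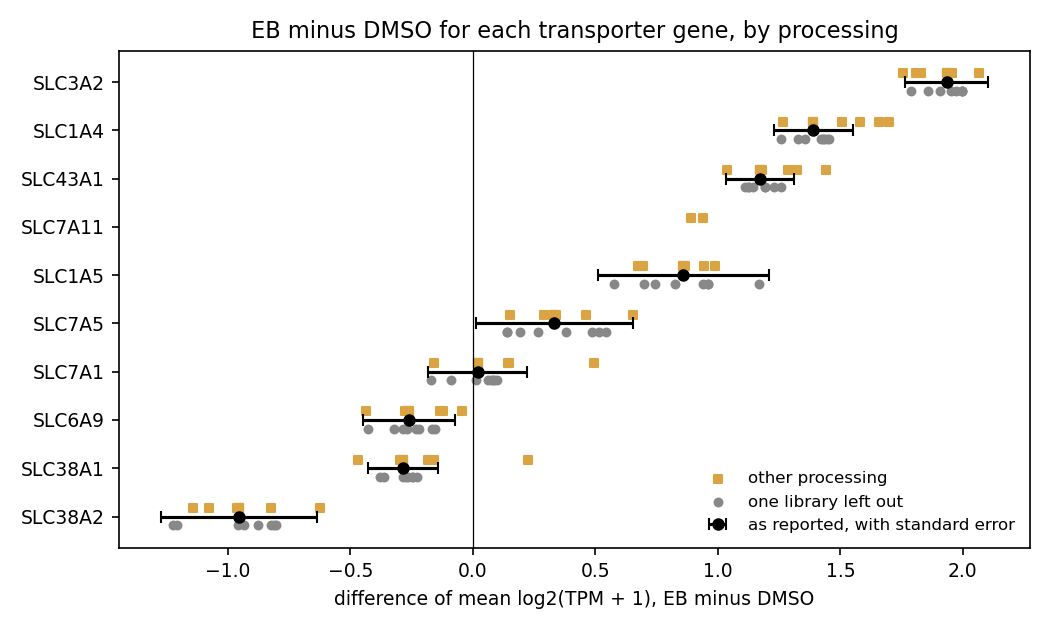
Difference of mean log2(TPM + 1), EB minus DMSO, for the 10 members. Black points with standard errors are the values given in the text for the 9 tested, squares the values under other processing and grey points those with 1 library left out. SLC3A2, SLC1A4 and SLC43A1 are above 1 and SLC38A2 is below 0 in every alternative shown, and SLC38A1 and SLC7A1 have values on both sides of 0.

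The order of the members by level differed between the groups. With DMSO, SLC38A2 was the most abundant (150.5 TPM), followed by SLC1A5 (113.7), SLC7A5 (56.0) and SLC3A2 (49.0), and each of these overlapped its neighbour in range. A gap separated them from SLC38A1 (27.2), SLC7A1 (20.7) and SLC6A9 (14.6), a further gap preceded SLC43A1 (4.53) and SLC1A4 (3.99), and SLC7A11 (0.229) came last. With EB, SLC1A5 (209.7) and SLC3A2 (188) came first with overlapping ranges. SLC3A2 did not overlap the next, SLC38A2 (77.2), which in turn overlapped SLC7A5 (69.9). After a gap came SLC38A1 (22.1) and SLC7A1 (20.7), which overlapped, and after another SLC1A4 (11.97), SLC6A9 (11.8) and SLC43A1 (11.4), each overlapping the next. SLC7A11 (1.29) was again last.

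The summed TPM of the 10 members was 624.5 ± 142.2 with EB (range 432.6 to 747.0) and 440.3 ± 117.4 with DMSO (range 267.0 to 527.3; SD, n = 4), so that the groups overlapped. Within this sum, the share of SLC3A2 was 31.0% ± 5.75 with EB and 11.4% ± 1.52 with DMSO. SLC38A2 took 12.3% ± 3.57 with EB and 33.7% ± 4.38 with DMSO. The share of SLC1A5 was 32.6% ± 6.01 with EB and 25.4% ± 2.29 with DMSO, and that of SLC7A5 was 10.99% ± 1.63 against 12.9% ± 3.95. The remaining 6 members each took less than 7% in both groups. These shares do not depend on the mitochondrial share, since all members are nuclear genes of the same library.

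Fold changes in these data were lower for genes with longer transcripts. Each tested member was therefore set beside genes of like length (canonical transcript in GENCODE release 44), and SLC7A11, not tested, was left out. SLC3A2, at 1885 nt, is in the shortest of 3 length classes, where the median log2 fold change of 3896 genes was 0.24 and the upper quartile 0.54. SLC1A5, SLC43A1 and SLC6A9 are in the middle class, where the quartiles of 3895 genes were −0.45 and 0.19. SLC43A1 (1.17) and SLC1A5 (0.86) were above that range and SLC6A9 (−0.26) within it. SLC1A4, SLC7A5, SLC7A1, SLC38A1 and SLC38A2 are in the longest class, where the median of 3894 genes was −0.43 and the quartiles were −0.76 and −0.08. SLC1A4 (1.39), SLC7A5 (0.33) and SLC7A1 (0.02) were above those quartiles, SLC38A1 (−0.29) was between them and SLC38A2 (−0.95) below. With trends in length and GC content removed, the median log2 fold change of the tested members was 0.65 in place of 0.33.

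**Figure D4:**
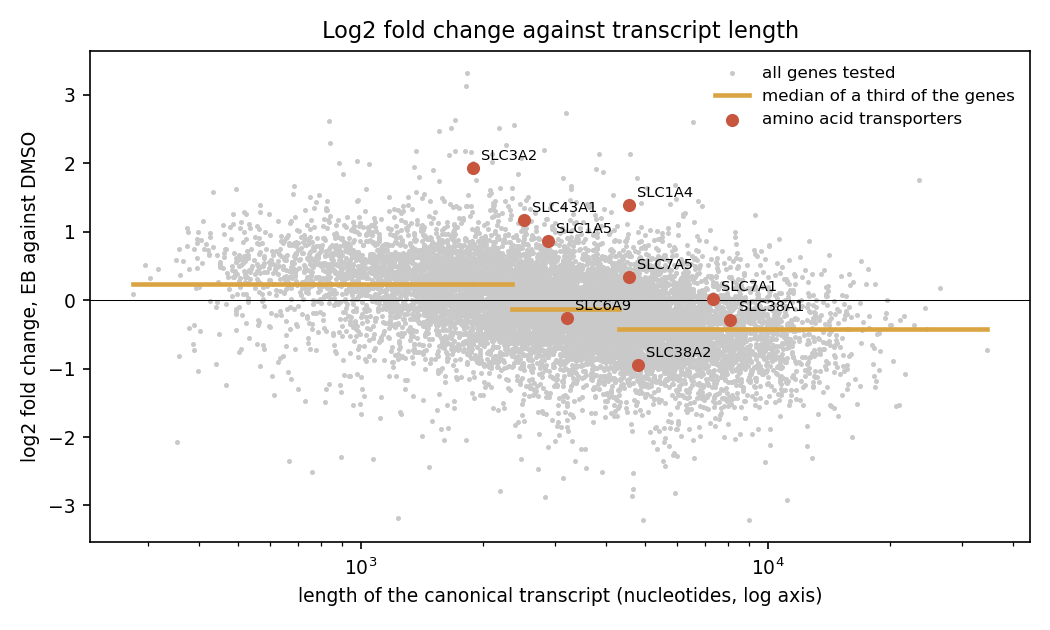
Log2 fold change, EB against DMSO on log2(TPM + 1), against the length of the canonical transcript in nucleotides (log axis). Grey points are the genes tested, lines the median of each of 3 length classes and red points the 9 tested members. The median goes from 0.24 in the shortest class to −0.43 in the longest, and SLC1A4, SLC7A5 and SLC7A1 are above the median of the long genes while SLC38A2 is below it.

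Other amino acid transporters of the cell surface were few. Of 35 further genes of this kind, 5 were tested (SLC1A1, SLC6A6, SLC7A6, SLC38A4 and SLC43A2), 25 were below 1 TPM in all libraries, and 12 of these were listed at 0 throughout. At a limma adjusted p under 0.05, 0 of the 5 were higher with EB and 2 lower, beside 15.2% and 25.1% of all genes. At an unadjusted p under 0.05, 0 of the 5 were higher as well. This list and those below were compiled by hand with earlier results of these data known, so their counts and p-values are descriptions. SLC38A4, a relative of SNAT2, fell from 4.68 ± 0.919 to 2.75 ± 0.119 TPM (SD, n = 4; log2 fold change −0.58, limma adjusted p = 0.00998), a call that was lost with quantile normalization. SLC7A6 fell from 16.5 ± 8.74 to 7.73 ± 2.36 TPM (SD, n = 4; log2 fold change −0.92, limma adjusted p = 0.0427), with overlapping groups. Its call was lost under 8 of 17 alternatives, among them leaving out DMSO replicate 2 or 3 or EB replicate 2, 3 or 4. Among the untested genes, 5 reached 1 TPM in some library, namely SLC7A2, SLC16A10, SLC6A12, SLC7A7 and SLC6A13, and they are named after their values were seen. SLC16A10, a facilitator of aromatic amino acids, was at 1.34 ± 0.699 TPM with EB and 0.376 ± 0.338 with DMSO, and SLC6A12, a carrier of betaine, was at 0.431 ± 0.123 against 1.61 ± 0.521 (SD, n = 4). Neither of these overlapped between the groups, which among all genes tested held for 16.6% upward and 20.3% downward. For SLC16A10 the gap was very small, from 0.709 TPM in DMSO replicate 3 to 0.726 TPM in EB replicate 2, at unknown depth.

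Carriers of internal membranes were compared in the same way, again beside 15.2% higher and 25.1% lower among all genes tested. Of 11 lysosomal genes, 10 were tested, 1 was higher and 2 were lower with EB. This was 2 higher and 1 lower after quantile normalization, 2 and 2 after median-ratio scaling, 3 and 1 with trends in length and GC content removed, and 1 and 5 with the mitochondrial genes removed. SLC15A3, a carrier of histidine and peptides, fell from 15.96 ± 4.66 to 5.01 ± 0.938 TPM (log2 fold change −1.46, limma adjusted p = 0.000975, n = 4). MFSD12, needed for cysteine import into lysosomes, rose from 129.8 ± 23.2 to 180.9 ± 15.9 TPM (log2 fold change 0.49, limma adjusted p = 0.0328), and SLC36A4, a proline and tryptophan carrier, fell from 7.56 ± 2.22 to 4.75 ± 0.257 TPM (log2 fold change −0.54, limma adjusted p = 0.0283). MFSD12 lost its call without DMSO replicate 3 or EB replicate 1, 2 or 3. SLC36A4 lost it without DMSO replicate 2 or any 1 EB library, with quantile normalization and with trends in length and GC content removed. Of 12 mitochondrial carriers, 11 were tested by limma, 0 were higher (1 at an unadjusted p under 0.05) and 2 were lower. This was 2 higher and 1 lower after quantile normalization, 1 and 3 after median-ratio scaling, 2 and 3 with trends in length and GC content removed, 0 and 6 with the mitochondrial genes removed, and 1 and 5 with the replicate block. SFXN1, a serine carrier named after its values were seen, was at 45.0 ± 2.003 TPM with EB and 35.4 ± 5.34 with DMSO (SD, n = 4), with all EB libraries above all DMSO libraries, and passed the test in 4 of 17 alternatives. SLC25A22, a glutamate carrier, fell from 52.8 ± 13.3 to 25.1 ± 6.99 TPM (log2 fold change −1.05, limma adjusted p = 0.0101), under every alternative. Its relative SLC25A18 was lower as well (log2 fold change −0.53, limma adjusted p = 0.0165), but reached 1 TPM only with DMSO, through which it passed the filter, and lost its call without DMSO replicate 2 and with quantile normalization.

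Genes of 2 stress pathways, called regulators here for short, were measured in the same libraries. Whether any of them regulates the members in these cells was not tested. Of 16 genes of the ATF4 and NRF2 pathways, 15 were tested, 8 were higher and 2 lower with EB, beside 15.2% and 25.1% of all genes. These genes were listed by hand with earlier results of these data known. The count and the p-values below are therefore descriptions and not evidence about the pathways. ATF4 itself rose from 218 ± 38.6 to 465 ± 50.8 TPM (log2 fold change 1.10, limma adjusted p = 0.000844), with no overlap between the groups. DDIT3, which encodes the stress factor CHOP, rose by 1.85 on the log2 scale (limma adjusted p = 0.000591), and TRIB3, an inhibitor of ATF4, by 1.64 (limma adjusted p = 0.00366). CEBPB rose by 1.54 (limma adjusted p = 0.000144) and CEBPG by 0.94 (limma adjusted p = 0.00087), both of them partners of ATF4 at C/EBP-ATF elements. CHAC1, which degrades glutathione, rose by 1.28 (limma adjusted p = 0.0299) with overlapping groups and in 10 of 16 alternatives, and SESN2, a leucine sensor, by 1.06 (limma adjusted p = 0.0027). EIF2AK2, the kinase PKR, fell by 0.83 (limma adjusted p = 0.00484), a call lost with trends in length and GC content removed. EIF2AK4, the amino acid sensor GCN2, named after its value was seen, fell by 0.78 (limma adjusted p = 0.0051). PPP1R15A, likewise named after its value was seen, rose by 0.75 (limma adjusted p = 0.00378), with no overlap between the groups. CHAC1 lost its call without DMSO replicate 1, 3 or 4 or EB replicate 2 or 3. NFE2L2, which encodes NRF2, had a log2 fold change of 0.48 that did not pass (limma adjusted p = 0.177). KEAP1 (0.45, limma adjusted p = 0.133) and BACH1 (−0.64, limma adjusted p = 0.0502), named after their values were seen, did not pass either. NFE2L2 passed under 1, KEAP1 under 3 and BACH1 under 5 of 17 alternatives. These are mRNA levels, and the activity of the ATF4 and NRF2 proteins was not measured in these libraries.

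**Figure D5:**
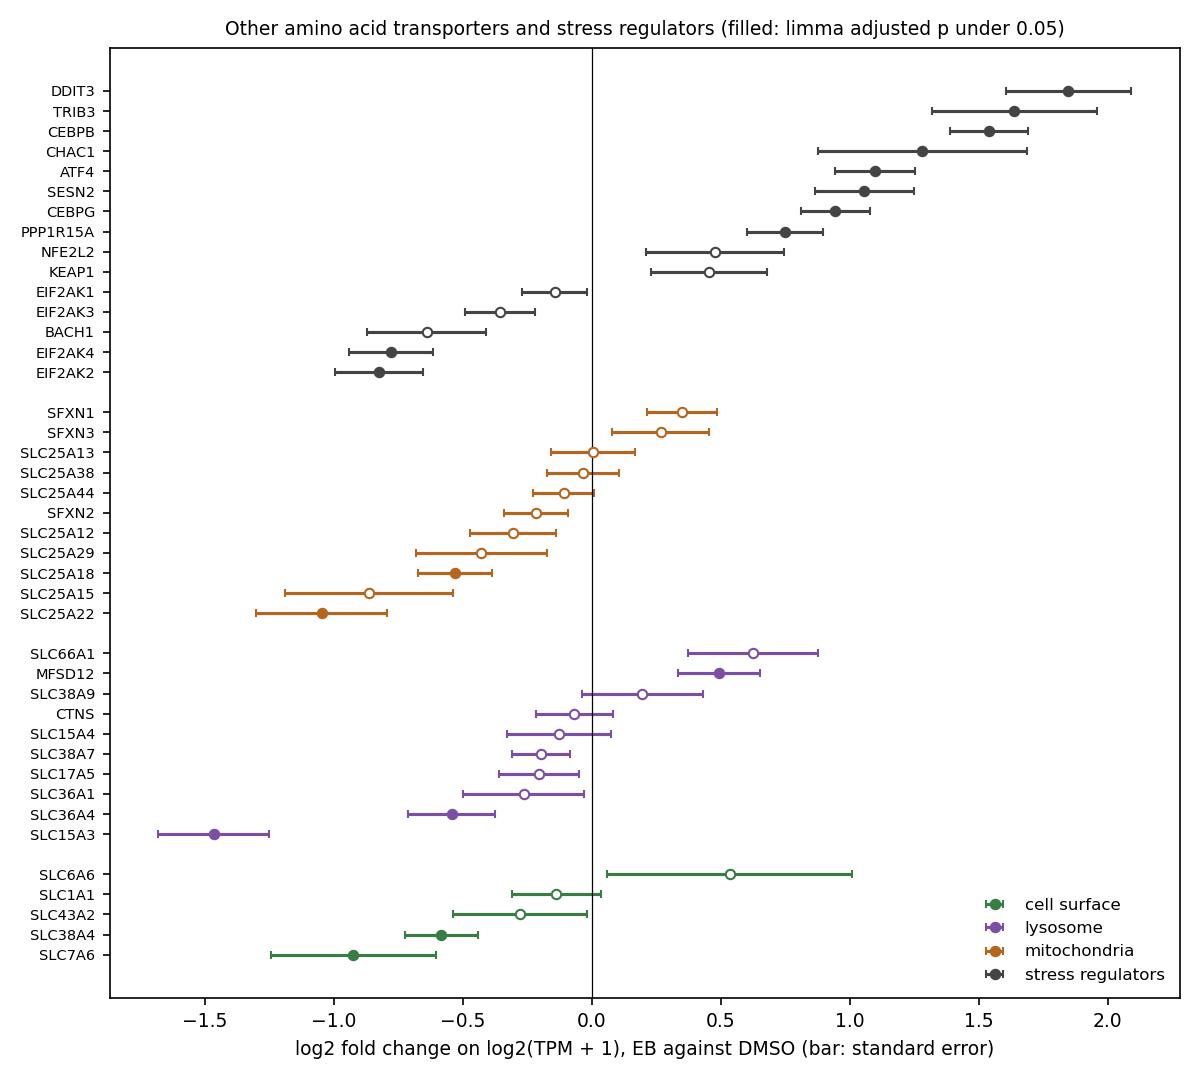
Log2 fold change, EB against DMSO on log2(TPM + 1), of each tested gene among the other surface transporters, the lysosomal and mitochondrial carriers and the regulators, with bars for the standard error and filled points for genes past the test. Filled points on the higher side are 8 regulators and MFSD12, and those on the lower side are in every list.

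Across the SLC superfamily, 192 of 367 genes other than the members were tested. At a limma adjusted p under 0.05, 23 of these were higher and 45 lower, beside 15.2% and 25.1% of all genes. The split depended on the scaling, with 47 higher and 44 lower after median-ratio scaling, 45 and 36 after quantile normalization, 45 and 34 with trends in length and GC content removed, and 17 and 74 with the mitochondrial genes removed. The median log2 fold change of these SLC genes was −0.10. In 3 of the 9 tested members, SLC3A2, SLC1A4 and SLC43A1, all EB libraries were above all DMSO libraries, which held for 16.6% of all genes tested and for 25 of these SLC genes. In no tested member were all EB libraries below all DMSO libraries, which held for 20.3% of all genes and for 39 of these SLC genes.

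The genes whose pattern over the 8 libraries was most like that of SLC3A2 were NPAS1, TNFRSF12A, SAT1, TAGLN and OSGIN1. Likeness was the root mean square distance of log2(TPM + 1) after subtraction of the gene's own DMSO mean, and it was 0.12 for NPAS1 and 0.17 for OSGIN1. SAT1, the acetyltransferase of polyamine breakdown, was at 245.8 ± 15.9 TPM with EB and 61.2 ± 5.55 with DMSO (SD, n = 4). The genes most like SLC7A11 were ARHGAP10, MYO1D, DKK1, IFRD1 and EPHX4, at distances from 0.07 to 0.10. Since SLC7A11 is near the pseudocount, its nearest genes have smaller ratios on the TPM scale, as DKK1, a secreted inhibitor of WNT signaling, with 89.9 ± 5.58 TPM with EB and 48.3 ± 4.30 with DMSO (SD, n = 4).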

How the data were processed

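Gene expression was taken from the table of TPM that the authors deposited for 8 libraries, 4 per group, with no read counts, so the depth and the counting error are unknown here. Per the paper's methods, reads were processed in CLC Genomics Workbench, with HISAT2 and StringTie among the further tools. GRCm38, mm10 and hg38 are all named in the submitters' processing notes. The identifiers are human, and 20148 of 20263 had a symbol in GENCODE 44 on hg38, which gave positions and lengths and can differ from the annotation the authors used. The methods speak of 4 biological replicates and also of triplicates.

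TPM were used as deposited, as log2(TPM + 1). Genes that reached 1 TPM in 4 or more libraries were compared between the groups with limma 3.58.1 in R 4.3.3, by lmFit and eBayes with 3.88 prior degrees of freedom and with neither trend nor block. P-values were adjusted by Benjamini-Hochberg over the whole set tested. Of these steps, only the main limma fit was tested on simulated data, with independent noise for each gene and library. Those data held neither a library-wide effect, such as that of the mitochondrial share, nor a trend with length, so they do not cover these. The members and lists were chosen with earlier results of these data known, and the lists were compiled by hand. The genes named are all members, of each other list those at an adjusted p under 0.05 (the 8 largest by absolute log2 fold change where there were more), the 3 highest and 3 lowest such other SLC genes, and the 5 nearest to SLC3A2 and to SLC7A11, apart from genes said to be named after their values were seen. The 17 alternatives were median-ratio scaling, quantile normalization, removal of the mitochondrial genes with rescaling, removal of trends in length and GC content, no filter on low values, a filter at 5 TPM, a pseudocount of 0.1, an intensity trend, the replicate number as a block, and each of the 8 libraries left out. Counts were also taken at other thresholds. Tables were handled with Python 3.11.15, pandas 2.3.3 and numpy 2.4.6, and plots drawn with matplotlib 3.10.9.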

Additional observations from a re-analysis of the deposited data

Results flagged for a closer look

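Of 26 sets of 4 libraries checked, the values of single genes in 1 group or of the sums and ratios above, 1 held a library far from the others. SLC1A5 was at 59.3 TPM in DMSO replicate 4, while the other DMSO libraries were within 127.6 to 134.0 TPM, a gap of 0.914 of the range of the group, above Dixon's critical value at the 95% level for a set of this size. About 1 in 20 such sets is picked out by chance. The mitochondrial genes took 39.0% of the TPM in that library, and with them removed SLC1A5 was at 97.2 TPM, still below the other DMSO libraries. EB replicate 4, the lowest EB library, was at 103 TPM, so that leaving out DMSO replicate 4 did not separate the groups.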

How the results depend on the processing

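SLC3A2, SLC1A4 and SLC43A1 passed the test in all 17 alternatives, which all use the libraries from which the members were chosen. Of 155 fold changes of single members, 149 moved by less than the spread between replicates. No filter on low values, a filter at 5 TPM, the intensity trend and the replicate block cannot move a fold change. Leaving out 1 library of 4 shifts a group mean by less than this spread, so those fold changes could not count as moved either. Most of these 149 were therefore fixed beforehand and do not show stability. The 4 members called became 7 with the mitochondrial genes removed (of 10 tested, since SLC7A11 then passed the filter through the EB libraries and is 1 of the 7) and 1 at the study's thresholds (unadjusted p under 0.05, absolute log2 fold change above 1.5), and 3 to 6 when a library was left out (6 without DMSO replicate 4). Over all genes the calls also rose, from 4729 of 11725 to 6405 of 11967 with the mitochondrial genes removed. Without DMSO replicate 4 they were 6159 of 11725. At the study's thresholds the calls were 0 of the surface, lysosomal and mitochondrial lists, 3 regulators, 3 SLC genes and 244 of all genes. At an adjusted p with an absolute log2 fold change above 1 they were 0, 1, 1, 6, 18 and 1052 in the same order, from the surface list to all genes. The surface list (2 calls) gave 1 at a TPM of at least 5 and with the length and GC trend removed, 0 with quantile normalization, and 1 to 2 without a library. The lysosomal list (3) gave 6 with the mitochondrial genes removed and 1 to 5 without a library (1 without EB replicate 1, 2 or 3, 5 without DMSO replicate 4). The mitochondrial carriers (2) gave 1 at a TPM of at least 5, 4 with median-ratio scaling, 6 with the mitochondrial genes removed, 5 with the length and GC trend removed and 1 to 5 without a library (1 without DMSO replicate 2, 5 without DMSO replicate 4). Leaving out a library gave 9 to 11 regulators, 44 to 84 SLC genes (68 with all libraries, 44 without EB replicate 3 and 45 without DMSO replicate 2), 3382 to 6159 of all genes, a median of the members of 0.14 to 0.54 and a heavy to light chain quotient of 3.09 to 4.22, which was 2.48 in place of 3.44 with the length and GC trend removed. The cause of these shifts was not tested.

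With the replicate number as a block, 6 mitochondrial carriers and 5756 genes in all passed, and SLC1A5 did. The libraries share only a number. Deviations from the group means correlated between same-numbered libraries with r of 0.183, 0.0463, −0.0879 and 0.284 across genes, which are not independent, and these were not all above the highest correlation between different numbers, 0.126. Depth is unknown, so that the low values of SLC7A11 carry no interval for counting error.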

Other observations

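Among SLC genes that are on none of the hand-compiled lists, those with the 3 highest and 3 lowest log2 fold changes past the test were as follows. SLC20A1, a sodium-phosphate carrier, rose from 20.7 ± 3.74 TPM with DMSO to 65.5 ± 5.77 TPM with EB (SD, n = 4; log2 fold change 1.63, limma adjusted p = 0.000113). SLC16A6, of the monocarboxylate carrier family, rose from 0.816 ± 0.464 to 3.63 ± 0.411 TPM (log2 fold change 1.38, limma adjusted p = 0.000521), having passed the filter through the EB libraries and 1 DMSO library, and SLC52A2, a riboflavin carrier, from 44.5 ± 14.2 to 96.5 ± 32.9 TPM (log2 fold change 1.10, limma adjusted p = 0.02). SLC9A3, a sodium-proton exchanger, fell from 24.2 ± 8.43 to 4.85 ± 1.598 TPM (log2 fold change −2.07, limma adjusted p = 0.000835). SLC39A10, a zinc importer, fell from 32.4 ± 6.18 to 10.5 ± 1.94 TPM (log2 fold change −1.52, limma adjusted p = 0.000364), and SLC35E2A fell from 6.91 ± 2.44 to 1.79 ± 0.677 TPM (log2 fold change −1.47, limma adjusted p = 0.00345). In each of these 6 genes the EB and DMSO libraries did not overlap. They were picked as the extremes of this comparison, so this is a description. Among all genes tested, the groups did not overlap for 16.6% upward and 20.3% downward.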
